A study of Homo sapiens with 6 samples.

Results

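The genes of the myosin light chain family were followed in RH30 cells that had lost MyoD. The 9 genes, MYL1, MYL2, MYL3, MYL4, MYL5, MYL6, MYL6B, MYL9 and MYL11, were taken by name out of 22448 genes with a transcript cluster of their own symbol, and MYL11 is the current symbol of MYLPF. Each of the 9 was read by 1 transcript cluster, the array's unit for a gene. RH30 is an established cell line from an alveolar, fusion-positive rhabdomyosarcoma (RMS), a tumor with features of developing skeletal muscle. All 6 samples expressed the IκBα super-repressor (SR), a retrovirally delivered inhibitor of NF-κB. The paper names a clonal RH30-SR line, but does not say whether the arrays used it. The 3 control samples (RH30-SR) carried no further change named in the labels. The paper also names the controls RH30-SR in its array methods and in some legends, but Vector cells in another legend. It defines Vector cells as carrying scrambled guides. The other 3 (RH30-SR MyoDΔ) all came from 1 clone, in which MyoD had been ablated with CRISPR. RNA of 3 samples per group was hybridised to whole-transcriptome arrays, and with 1 clone the p values reflect the spread among arrays, which may be technical, and not the spread among clones.

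Myosin II, the motor of muscle and of contractile fibers in other cells, holds a pair of heavy chains, each of which carries an essential and a regulatory light chain at its neck. Essential (alkali) light chains stiffen the lever arm of the motor, and regulatory light chains tune it and can be phosphorylated by myosin light chain kinases. Different muscles use different genes for each role. Fast skeletal fibers use MYL1 and MYL11, slow fibers and the cardiac ventricle use MYL3 and MYL2, and embryonic skeletal muscle and the cardiac atrium use MYL4. Smooth muscle and non-muscle cells rely on MYL6 and on regulatory chains such as MYL9. MyoD is a basic helix-loop-helix factor that binds the DNA motif called the E-box, and many genes of the contractile apparatus are among its known targets in muscle.

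Values are log2 RMA expression, on which a difference of 1 is a 2-fold difference, and they cannot be used to rank different genes because each transcript cluster has its own probes. The values ran from 0.91 to 13.82 over 65535 transcript clusters, and the array medians lay between 4.27 and 4.31. Pairs of arrays correlated at 0.994 to 0.997 within groups and at 0.989 to 0.992 between them, over transcript clusters that are not independent replicates. MYOD1 read 9.09, 9.50 and 9.43 in RH30-SR and 6.95, 7.16 and 6.90 in MyoDΔ cells, which ordered the groups as labelled. The position of the edit with respect to the MYOD1 probes was not determined. All 9 light chain genes lay above the median of all values (4.29) in both groups, although no measure of background was available to set a limit of detection.

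Loss of MyoD was accompanied by lower expression of 3 of the 9 light chain genes, MYL4, MYL11 and MYL1, and 0 of the 9 were higher. The other 6 were not called. A gene was called at an adjusted p under 0.05 in limma (Benjamini-Hochberg over all transcript clusters) together with a fold change over 25%. By this rule 7.01% of all 22448 genes were called, with 4.20% lower and 2.81% higher in MyoDΔ cells. At an unadjusted p under 0.05 in the same limma fit, 5 of the 9 members were reached, with 0 of them on the higher side, where the share of all genes was 24.6% in either direction and 13.1% on the lower side. The median log2 fold change of the 9 genes was -0.15, against -0.01 over all genes. In bulk RNA, fewer cells expressing a gene and less RNA per cell cannot be told apart.

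**Figure D1:**
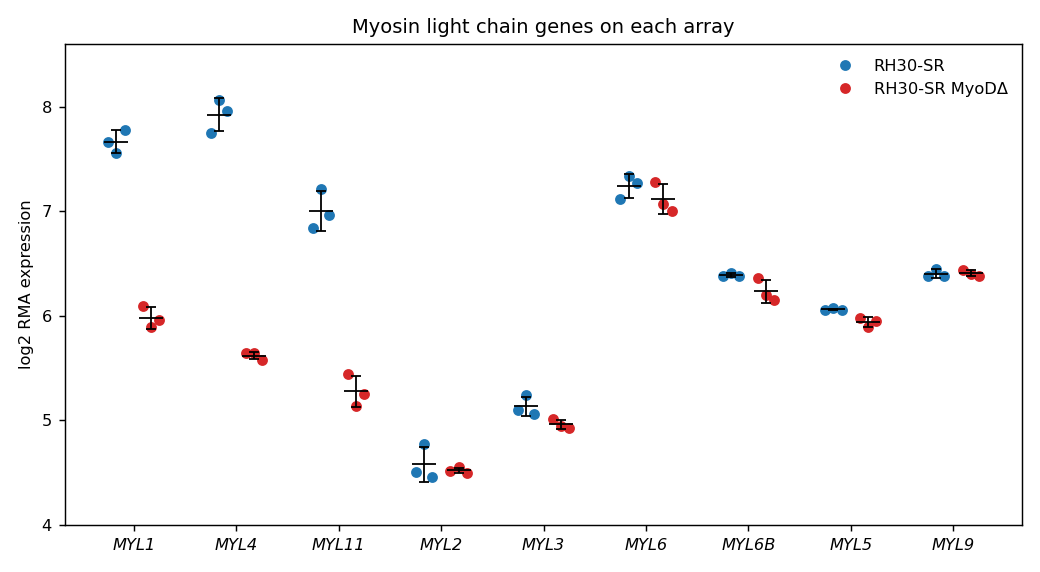
Log2 RMA expression of the 9 myosin light chain genes on each of the 6 arrays. Points are single arrays, horizontal bars are group means and error bars are SD (n = 3 per group). MYL1, MYL4 and MYL11 fell from group means of 7.67, 7.92 and 7.00 to 5.98, 5.62 and 5.28, whereas the groups of the other 6 genes lay at most 0.17 apart.

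MYL4 encodes the essential light chain of embryonic skeletal and atrial muscle, and it changed the most. Its levels were 7.75, 8.06 and 7.96 in RH30-SR and 5.64, 5.64 and 5.58 in MyoDΔ cells. Every MyoDΔ array thus lay more than 2 log2 units below every control array, and the spread within the MyoDΔ group (SD 0.0346) was narrower than in the controls (SD 0.158). In limma MYL4 changed by -2.30 ± 0.08 on the log2 scale (SE, 3 arrays per group, adjusted p = 2.15e-05), and was thus 4.94-fold lower. By size of change MYL4 ranked 17 among 22448 genes.

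MYL1 encodes the essential light chain of fast skeletal muscle, which is made in a longer and a shorter form from separate promoters of the gene. It read 7.66, 7.56 and 7.78 in RH30-SR and 6.09, 5.89 and 5.96 in MyoDΔ cells. The groups did not overlap. In limma the change was -1.69 ± 0.08 on the log2 scale (SE, 3 arrays per group, adjusted p = 6.86e-05), which is 3.22-fold. Its single transcript cluster gives 1 value for the gene, so that the forms were not separated.

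MYL11 encodes the regulatory light chain of fast skeletal muscle, the partner of MYL1 on the fast myosin motor. Its values were 6.84, 7.21 and 6.96 in RH30-SR and 5.44, 5.14 and 5.25 in MyoDΔ cells. The groups again did not overlap, but the spread of the arrays (SD 0.189 and 0.152) was the widest of the 3 lowered genes. MYL11 was lower by 3.31-fold, with a limma log2 fold change of -1.73 ± 0.11 (SE, 3 arrays per group, adjusted p = 3.02e-04). Ranked by size of change, MYL11 and MYL1 stood at 48 and 51.

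**Figure D2:**
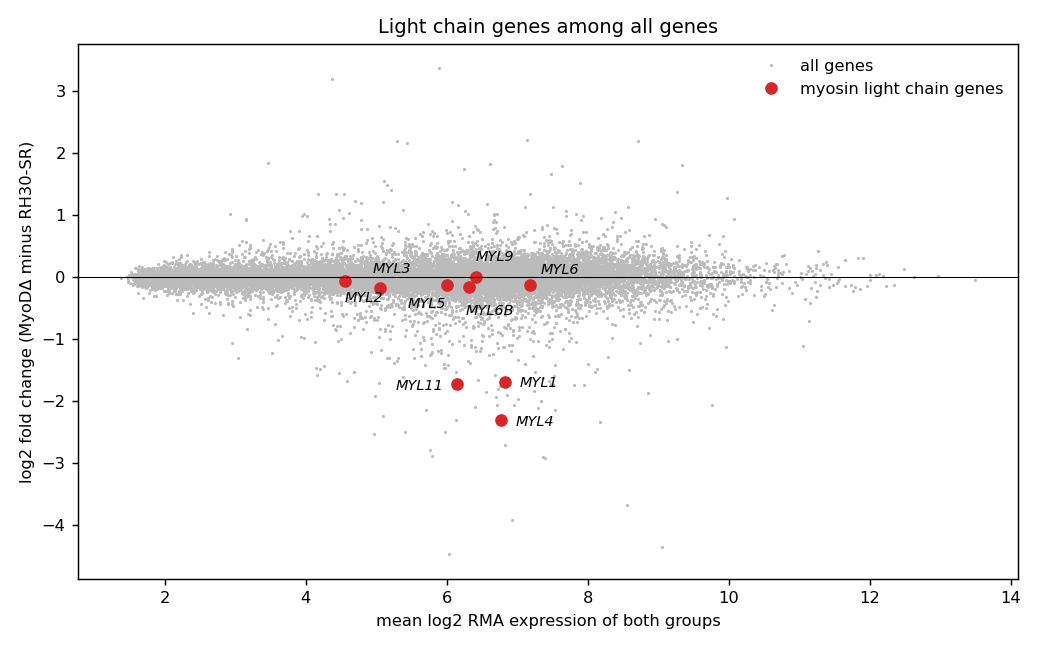
Log2 fold change (MyoDΔ minus RH30-SR) against the mean log2 RMA expression of both groups, for 22448 genes in grey and the 9 myosin light chain genes in red. MYL4 (-2.30), MYL11 (-1.73) and MYL1 (-1.69) lie below the cloud, and the other 6 genes lie within it.

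RefSeq sequence before the transcription start was available for 6 of the 9 genes, and it is shown for MYL1 and MYL11 because these genes fell. MYL2, MYL4 and MYL9 had no entry. Of MYL1 and MYL11, 2 start sites each are listed by RefSeq (GRCh38.p14). The 250 bases before each start run 5′ to 3′ on the strand of the gene. They lie on the minus strand at chr2:210315175-210315424 and chr2:210303616-210303865 for MYL1, upstream start and internal start, and on the plus strand at chr16:30370684-30370933 and chr16:30372044-30372293 for MYL11. Capitals mark the E-box (CANNTG) and the consensus site of MEF2, a factor that acts with MyoD in muscle.
MYL1 upstream start: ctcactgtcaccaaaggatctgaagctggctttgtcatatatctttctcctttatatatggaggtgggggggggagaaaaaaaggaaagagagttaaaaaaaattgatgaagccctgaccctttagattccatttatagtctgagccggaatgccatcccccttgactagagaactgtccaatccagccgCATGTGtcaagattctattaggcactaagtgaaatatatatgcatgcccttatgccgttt
MYL1 internal start: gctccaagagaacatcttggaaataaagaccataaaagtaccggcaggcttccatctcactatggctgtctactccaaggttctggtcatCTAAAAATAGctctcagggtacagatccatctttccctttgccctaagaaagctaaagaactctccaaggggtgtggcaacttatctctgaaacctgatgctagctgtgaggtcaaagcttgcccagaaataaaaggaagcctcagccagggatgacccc
MYL11 first start: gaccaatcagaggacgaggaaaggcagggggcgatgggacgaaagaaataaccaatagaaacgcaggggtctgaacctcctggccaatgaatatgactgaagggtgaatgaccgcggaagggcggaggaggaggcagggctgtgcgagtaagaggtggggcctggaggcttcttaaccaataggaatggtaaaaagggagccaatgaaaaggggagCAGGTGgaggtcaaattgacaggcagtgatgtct
MYL11 second start: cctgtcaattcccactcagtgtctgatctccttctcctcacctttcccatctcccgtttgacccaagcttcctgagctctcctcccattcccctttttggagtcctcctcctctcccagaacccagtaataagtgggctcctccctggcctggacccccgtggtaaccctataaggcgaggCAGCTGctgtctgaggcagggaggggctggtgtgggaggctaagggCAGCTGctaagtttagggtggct

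Both motifs equal their own reverse complement, so that each match holds on both strands. In MYL1 there was 1 E-box (CATGTG, first base at position -60) before the upstream start and 0 before the internal start, where a MEF2 consensus began at -160. MYL11 had 1 E-box (CAGGTG at -34) before the first start. The second start of MYL11 was preceded by 2 copies of CAGCTG, at -69 and -23, and a CAGGTG lay at position 23 after it. Among 35116 RefSeq windows of 300 bases (250 before and 50 after a start) 68.7% held an E-box, 17.9% held CAGCTG, which is 1 of the E-box spellings, 2.05% held at least 2 copies of CAGCTG, and 2.99% held the MEF2 consensus. In the genes that were not called, the window of MYL5 had 2 E-boxes, those of MYL6 and MYL6B had 1 each, and both windows of MYL3 had 0. A match to these letters is not evidence of binding, which the arrays do not measure.

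The light chains of slow fibers and the ventricle were not called. MYL3, the essential chain of this pair, read 5.10, 5.24 and 5.06 in RH30-SR and 5.01, 4.95 and 4.93 in MyoDΔ cells. Its groups did not overlap, but the difference was small, -0.17 ± 0.06 (SE, 3 arrays per group, 95% interval -0.32 to -0.02, limma adjusted p = 0.205). MYL2, the regulatory chain of the pair, read 4.51, 4.77 and 4.46 in RH30-SR and 4.52, 4.55 and 4.50 in MyoDΔ cells, with overlapping groups close to the median of all values, where a fall would be hard to see. The difference was -0.06 ± 0.09 (95% interval -0.26 to 0.15, adjusted p = 0.802).

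The light chains of smooth muscle and non-muscle cells were not called either. MYL6, the essential chain of most non-muscle myosin, read 7.12, 7.34 and 7.27 in RH30-SR and 7.28, 7.07 and 7.00 in MyoDΔ cells. These groups overlapped, and the difference was -0.13 ± 0.09 (SE, 3 arrays per group, 95% interval -0.34 to 0.09, limma adjusted p = 0.542). MYL6B, an essential chain of slow skeletal and non-muscle myosin, is the neighbor of MYL6 on chromosome 12. It read 6.38, 6.41 and 6.38 in RH30-SR and 6.36, 6.20 and 6.15 in MyoDΔ cells, a difference of -0.15 ± 0.07 (95% interval -0.31 to 0.00, adjusted p = 0.274). Its groups were separated by only 0.02, between a control array at 6.38 and a MyoDΔ array at 6.36. Whether the probes of MYL6 also read its processed pseudogenes was not tested.

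MYL9, the regulatory chain of smooth muscle, had the smallest difference of the 9. Its values were 6.38, 6.45 and 6.38 in RH30-SR and 6.44, 6.40 and 6.38 in MyoDΔ cells, so that the groups overlapped throughout. The difference was 0.00 ± 0.05 (SE, 3 arrays per group, 95% interval -0.12 to 0.12, limma adjusted p = 0.985). MYL5, a regulatory light chain gene first described in fetal muscle, read 6.06, 6.07 and 6.06 in RH30-SR and 5.98, 5.89 and 5.95 in MyoDΔ cells. Its groups did not overlap, with a difference of -0.12 ± 0.05 (95% interval -0.24 to -0.01, adjusted p = 0.237).

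For 5 of the 6 genes that were not called, the 95% interval stayed inside the fold threshold of 25% (0.32 on the log2 scale) in both directions, and the exception was MYL6. Without a measure of background, a narrow interval at a low level cannot show that expression was unchanged. This limit applies to MYL2 and MYL3, with RH30-SR means of 4.58 and 5.13. In 6 of the 9 genes every MyoDΔ array lay below every RH30-SR array, as it did in 18.4% of all genes, and the groups did not overlap in either direction in 34.2% of all genes. Besides the 3 called genes these were MYL3, MYL5 and MYL6B. By role, the lowered genes were 2 essential chains (MYL1 and MYL4) and 1 regulatory chain (MYL11), so that both kinds of light chain were represented.

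The size of the fall was also compared among the 3 lowered genes. Differences between pairs of them were taken within each array, and only the change of such a difference is meaningful. Even this change can depend on the background of each cluster's probes, for which no measure was available. MYL4 minus MYL11 was 0.91, 0.85 and 1.00 in RH30-SR and 0.20, 0.50 and 0.33 in MyoDΔ cells, a change of -0.58, which puts the fall of MYL4 1.49-fold beyond that of MYL11. MYL1 minus MYL4 was -0.09, -0.50 and -0.18 in RH30-SR and 0.45, 0.25 and 0.38 in MyoDΔ cells, a change of 0.62, or 1.53-fold. In neither pair did the groups overlap. The exact permutation p over the arrays was 0.1 for each of these pairs (two-sided, 0.15 after Benjamini-Hochberg adjustment over 3 pairs), which is the smallest that 3 against 3 arrays allow. MYL1 minus MYL11 changed by 0.04 with overlapping groups (exact permutation p = 1). Within the controls MYL4 and MYL11 had the same order of arrays, lowest in RH30-SR replicate 1 and highest in replicate 2. MYL1 did not follow this order, since replicate 2 was its lowest array.

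Genes with profiles like those of the most changed members were sought among all genes, by the root mean square difference of centred values over the 6 arrays. Closest to MYL4 were XIRP1, which encodes a protein that binds actin in striated muscle (root mean square difference 0.0751), MYOD1 itself (0.0806) and MEGF10, a receptor of muscle progenitor cells (0.131). XIRP1 read 7.17, 7.36 and 7.33 in RH30-SR and 5.11, 5.01 and 4.82 in MyoDΔ cells. Closest to MYL11 were MXRA5, a matrix protein (0.0882), DMBT1 (0.0925) and CDH15, the M-cadherin gene of myoblasts (0.0931). CDH15 read 8.26, 8.46 and 8.42 in RH30-SR and 6.68, 6.61 and 6.63 in MyoDΔ cells. This likeness rests mostly on the step between the groups, and is given as a description.

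The 4 light chain genes outside these 9, all of the regulatory type, were not called in limma, and 0 of them reached an unadjusted p under 0.05. MYL7, the atrial regulatory chain, had the smallest p value of these, with 5.67, 5.73 and 5.54 in RH30-SR and 5.60, 5.46 and 5.54 in MyoDΔ cells (-0.11 ± 0.07, SE, 3 arrays per group, limma adjusted p = 0.455). MYL7 is the usual partner of MYL4 in the atrium. MYL12A and MYL12B, the non-muscle regulatory chains, differed by 0.02 ± 0.05 and 0.01 ± 0.05.

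Myosin heavy chains, which light chains bind, were not called in limma for any of 15 measured genes, and 2 reached an unadjusted p under 0.05, a smaller share than the 24.6% of all genes. Their median log2 fold change was -0.01. The smallest p value was that of MYH10, the heavy chain of non-muscle myosin IIB, which read 7.60, 7.58 and 7.65 in RH30-SR and 7.89, 7.94 and 7.96 in MyoDΔ cells. Its rise of 0.32 ± 0.05 (SE, 3 arrays per group, limma adjusted p = 0.0126) stayed just below the fold threshold, and it was called when RH30-SR replicate 3 or MyoDΔ replicate 1 was left out (0.34 in both cases). Of the 15 genes, 6 lay below the median of all values in both groups. The fast heavy chain genes MYH1, MYH2 and MYH4 lay there, with group means between 3.22 and 3.45, so that a change of the heavy chains that pair with MYL1 and MYL11 could have been missed. The same limit applies to MYH3, with means of 4.29 in RH30-SR and 4.20 in MyoDΔ cells, and to MYH8, with 2.81 and 2.82.

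Enzymes that add or remove phosphate on regulatory light chains moved both ways, with 3 of 16 measured genes lower, 2 higher and 11 not called (median -0.005). Over all genes 4.20% were called lower and 2.81% higher. An unadjusted p under 0.05 in limma was reached by 9 of the 16, 5 of them on the higher side, against 24.6% of all genes in either direction. MYLK2, the myosin light chain kinase of skeletal muscle, whose substrate in fast fibers is the product of MYL11, changed the most. It read 6.32, 6.52 and 6.32 in RH30-SR and 5.12, 5.08 and 5.19 in MyoDΔ cells, with no overlap. Its level was 2.39-fold lower, a change of -1.26 ± 0.07 on the log2 scale (SE, 3 arrays per group, limma adjusted p = 1.56e-04). The other kinase genes of this name, MYLK (-0.04), MYLK3 (0.08) and MYLK4 (-0.08), were not called.

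PPP1R14B, an inhibitor of protein phosphatase 1, was lower by 0.52 ± 0.05 on the log2 scale (limma adjusted p = 0.00239), and STK17A, a kinase of the death-associated protein kinase family, was higher (0.46 ± 0.08, adjusted p = 0.0178). PPP1R12A, which targets the phosphatase to myosin, was higher by 0.36 ± 0.07 (adjusted p = 0.0222). Its striated muscle counterpart PPP1R12B, the remaining called gene and the fifth by size, changed by -0.35 ± 0.06 (adjusted p = 0.0141). The call of PPP1R12A was lost without any 1 array (adjusted p 0.0427 to 0.0918, the lowest with a fold change under the threshold) and that of PPP1R12B without RH30-SR replicate 1 or MyoDΔ replicate 2 or 3 (0.0515 to 0.0668). STK17A lost its call without MyoDΔ replicate 2 or 3 (0.0730 and 0.0718). With 1 array left out the number of called enzyme genes ranged from 2 to 4, and MYLK2 and PPP1R14B were called each time.

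**Figure D3:**
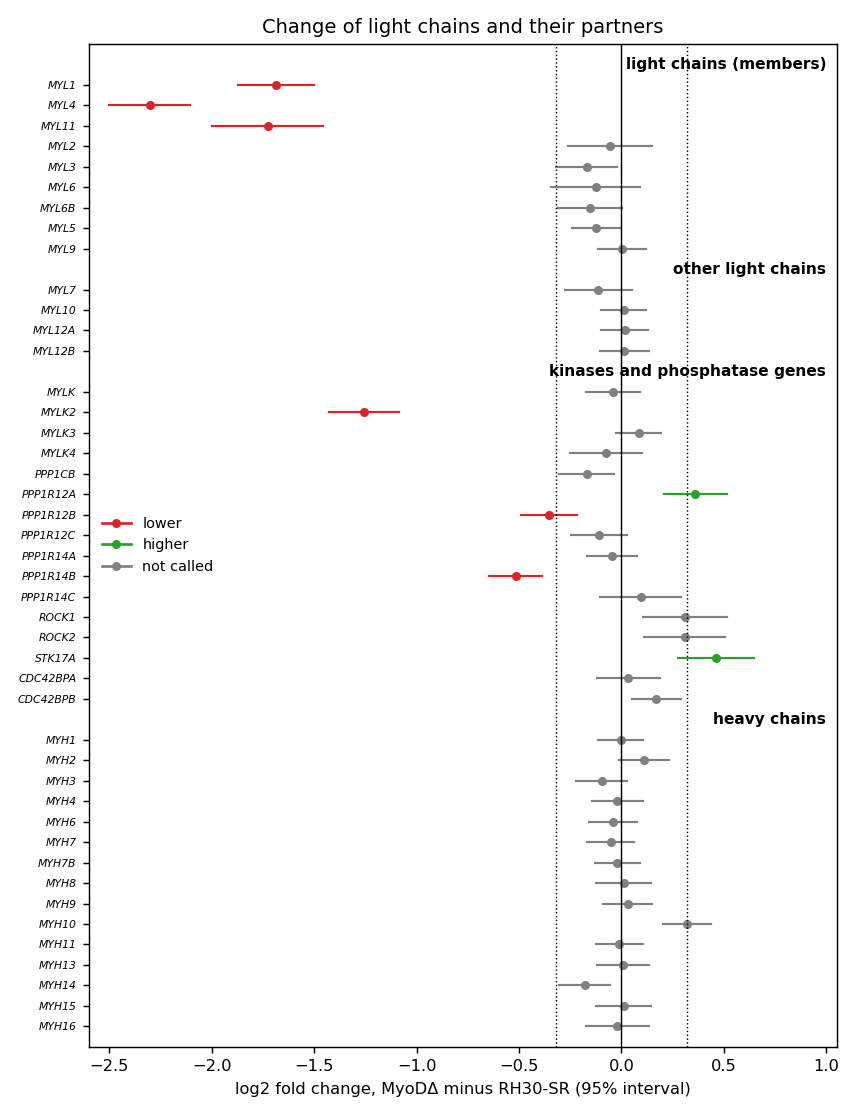
Log2 fold change (MyoDΔ minus RH30-SR) with its 95% interval for the 9 light chain genes, 4 other light chain genes, 16 genes for enzymes acting on light chains and 15 myosin heavy chain genes. Dotted lines mark the fold threshold of 25%. The light chain genes MYL1, MYL4 and MYL11 and the kinase gene MYLK2 (-1.26) stand apart to the left, and the heavy chains lie between -0.18 and 0.32.

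Of 13 measured genes of skeletal muscle identity, 8 were lower, 2 higher and 3 (ACTA1, MYF6 and PAX7) not called. Over all genes 4.20% were called lower and 2.81% higher. The mean log2 level of the list ranged from 7.74 to 7.89 in RH30-SR and from 6.46 to 6.48 in MyoDΔ arrays. Both the count and the level include MYOD1, the edited gene. CHRNA1 (-3.67), TNNI1 (-2.91), MYOG (-2.70) and MYOD1 (-2.34) changed the most, and the higher genes were MYF5 (0.98) and PAX3 (0.57), both known from muscle progenitors. Fusion-positive tumors carry PAX3 or PAX7 joined to FOXO1. Whether the PAX3 probes also read such a fusion transcript was not tested. The mean level of the list of 11 smooth muscle markers ranged from 6.30 to 6.37 in RH30-SR and from 6.18 to 6.21 in MyoDΔ cells, with 1 called gene, DES (-2.06), which is also in the skeletal list. Without DES, left out after its value was seen, the level of the other 10 ranged from 5.85 to 5.92 in RH30-SR and from 5.93 to 5.96 in MyoDΔ cells. Of the 11 genes, 7 reached an unadjusted p under 0.05 in limma, against 24.6% of all genes. Higher values were seen in 5 of these (CALD1, CNN1, MYOCD, SMTN and TAGLN), none of which was called. DES and SYNM (-0.20, not called) had lower values. The 9 measured cardiac markers had 2 called genes, NPPB (0.94) and RYR2 (-0.63), and levels of 5.31 to 5.37 and 5.33 to 5.37. Lists of leukocyte (7 genes), endothelial (7) and epithelial (7) markers held 1, 1 and 0 called genes in limma, with 2 genes each at an unadjusted p under 0.05, against 24.6% of all genes. Their levels ranged from 3.82 to 3.88, 4.51 to 4.58 and 4.50 to 4.52 in RH30-SR and from 3.94 to 3.98, 4.41 to 4.47 and 4.51 to 4.56 in MyoDΔ cells. The called genes were CD68 (0.89) and PECAM1 (-0.48), and CLDN4 (-0.16) had the smallest p value of the epithelial list. PECAM1 was called when MyoDΔ replicate 3 was left out but not when any other array was (adjusted p 0.0661 to 0.128). PTPRC, the pan-leukocyte marker, lay near the bottom of the range in both groups, with means of 2.30 and 2.33. The part of these markers in the change of the light chains was not tested.

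The calls of the light chain genes did not depend on a single array. With each array left out in turn, MYL4 ranged from -2.39 to -2.24, MYL1 from -1.74 to -1.63 and MYL11 from -1.81 to -1.62, and these 3 genes were called and the other 6 were not in each case.

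**Figure D4:**
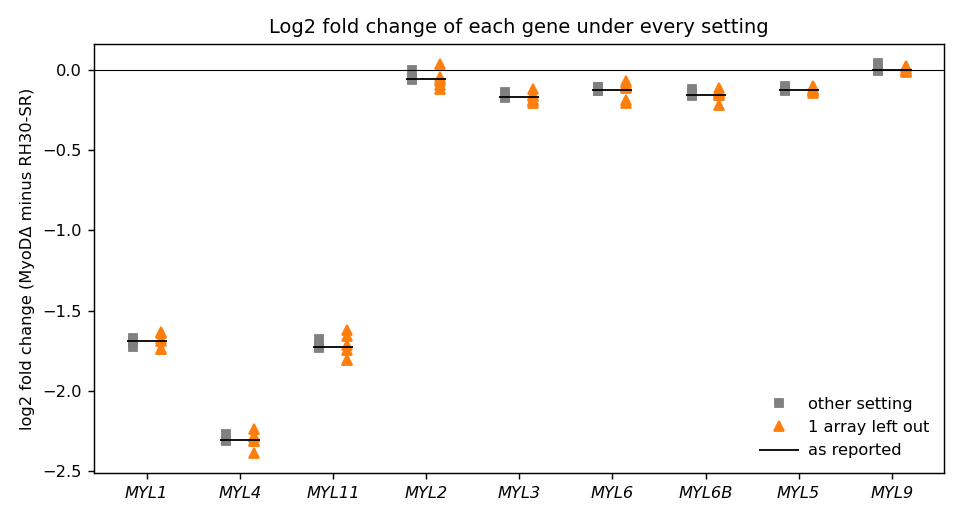
Log2 fold change (MyoDΔ minus RH30-SR) of the 9 genes as reported (black bars), with 1 array left out (triangles) and under other settings of the fit (squares). MYL1, MYL4 and MYL11 stay between -2.39 and -1.62 and the other 6 genes between -0.22 and 0.04.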

How the data were processed

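Expression was measured on 6 Affymetrix Human Transcriptome arrays (1 colour). The authors deposited log2 values per transcript cluster, made by RMA with its quantile normalization, which would hide a change shared by most transcripts. Affymetrix Expression Console and RMA appear in the submitters' processing notes, and oligo in the study's methods. Software versions and genome build are not given in the sources used here. A second table held the same values and was not used.

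Symbols came from the platform annotation (22758 clusters with 1 symbol, 1389 with several, which were left unnamed, and 41388 unnamed here), and RefSeq (GRCh38.p14) changed 0 of them. Each gene was represented by its brightest cluster on average. Some genes of the enzyme, cardiac and leukocyte lists are not reported here.

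limma 3.58.1 in R 4.3.3 (lmFit, eBayes, tested on simulated data) was fitted to 65535 clusters with a term for group. Calls needed a Benjamini-Hochberg adjusted p under 0.05 and a fold change over 25%. Named genes were the 9 members, MYOD1, MYOG, up to 4 called genes of each list by size (or the 1 with the smallest adjusted p), and the 3 genes nearest in profile to each of the 2 most changed members. MYL12A, MYL12B, MYLK, MYLK3, MYLK4, PPP1R12B, PTPRC, MYF5, PAX3, ACTA1, MYF6, PAX7, CALD1, CNN1, MYOCD, SMTN, TAGLN, SYNM, MYH3, MYH8 and the fast heavy chains were added after their values were seen. The members and lists were chosen with earlier results of these data known. Alternatives were other normalizations, filters, variance models and cluster choices, a replicate block and leaving out each array. The number of arrays limits the precision.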

Additional observations from a re-analysis of the deposited data

How the results depend on the processing

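The number of called light chain genes was 3 of 9, all lower, under all 17 alternatives run, and the calls were those of MYL1, MYL4 and MYL11 each time. Across the alternatives the log2 fold change ranged from -2.39 to -2.24 for MYL4 (limma adjusted p 1.97e-06 to 6.66e-04), from -1.74 to -1.63 for MYL1 (6.82e-06 to 9.53e-04) and from -1.81 to -1.62 for MYL11 (4.51e-05 to 0.00493). The lowest adjusted p of a gene that was not called was 0.0753, for MYL5, and for MYL2 (-0.12 to 0.04) and MYL9 (-0.01 to 0.04) the sign changed. A fit with the replicate block again called 3 light chain genes, and it called 1165 genes in all in place of 1573. Arrays of the same number deviated from their group means with correlations of -0.05, -0.04 and 0.03. No pairing by number was visible, although such correlations cannot exclude it. The block left 3 called genes in place of 5 among the enzymes acting on light chains, and 0 in place of 1 among the endothelial markers. Leaving out 1 array gave 2 to 4 called enzyme genes, 0 or 1 called heavy chain genes, 0 or 1 called endothelial markers and 1110 to 1376 called genes in all. With no fold threshold 2234 genes were called, MYH10 and the smooth muscle gene MYOCD among them. With clusters above the median level alone, 1 cardiac and 0 endothelial markers were called, in place of 2 and 1. RYR2 (means of 4.09 in RH30-SR and 3.45 in MyoDΔ cells) and PECAM1 (4.05 and 3.57) lay below that level and were not tested. The cause of the other differences was not tested. Under the other scalings the median difference between the groups over all clusters lay between -0.01 and 0.0017, against -0.0033 as deposited. Low values, such as those of the fast heavy chains, limit what a missing call can show.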
